A study of Mus musculus with 6 samples.

Results

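The genes described here encode telomerase reverse transcriptase (Tert) and the 6 subunits of shelterin, namely Terf1, Terf2, Terf2ip, Pot1a, Tinf2 and Acd. They are 7 of the 48897 genes in the deposited table. They were taken by gene symbol, and the set was chosen on the counts of these same 6 libraries, across all 3 groups. Their levels and fold changes in every comparison are therefore a description, given without p-values. Which of them pass the threshold used for all genes is listed below, with its dependence on the processing, and supports nothing. The cells were mouse embryonic fibroblasts of strain C57BL/6 at passages 5 to 7. Control cells received PBS. TC cells received TNF-α together with cycloheximide, and TCZ cells received the same pair of agents plus z-VAD-fmk. TNF-α is an inflammatory cytokine, cycloheximide stops protein synthesis, and z-VAD-fmk inhibits caspases broadly. No group analysed here received TNF-α or cycloheximide alone, so their parts cannot be told apart. The sources used here give neither doses nor times.

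Telomeres are the repeated DNA ends of chromosomes. Telomerase extends them: TERT is its catalytic protein, and the RNA encoded by Terc carries the template for the repeat. Shelterin coats the repeat and keeps it from being read as a DNA break. TRF1 (Terf1) and TRF2 (Terf2) bind the double strand, RAP1 (Terf2ip) rides on TRF2, and TIN2 (Tinf2) bridges the duplex binders to TPP1 (Acd). TPP1 recruits telomerase and holds POT1, which binds the single-stranded overhang. Mice have a pair of POT1 genes, Pot1a and Pot1b. The symbol Acd is used for shelterin TPP1 because the symbol Tpp1 belongs to an unrelated peptidase gene. Unlike most human somatic cells, mouse cells commonly keep some Tert expression.

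Poly(A)-selected RNA was sequenced in 2 libraries per group, with totals of 24922627 to 52909926 counts. Control 2 and TCZ 2 were the shallowest libraries and held 3 and 1 counts of the U1 RNA Rnu1a1, against 165 to 274 in the others. They were not alike in the small RNA Rn7s1, with 1338 counts in control 2, 4 in TCZ 2 and 4916 to 6106 in the others. All 10 fibroblast markers were expressed, at a summed level of 32717 to 37220 CPM per library, where CPM is the count scaled to library size after TMM normalization between libraries. Collagens and fibronectin carried that sum and moved in opposite directions in TC. Col1a1 was at 12400 and 11500 CPM in control and 6940 and 7310 in TC. Fibronectin (Fn1) was at 12300 and 11400 CPM in control and 15800 and 15600 in TC. Pdgfra was at 112 and 99.9 CPM in control and 17.8 and 15.1 in TCZ. Pdgfrb was at 522 and 494 CPM in control and 153 and 150 in TC. None of 8 pluripotency markers reached a mean of 1 CPM, and 4 of them, Pou5f1, Zfp42, Dppa5a and Tdgf1, had no count in any library. Of the 5 endothelial markers 4 reached a mean of 1 CPM, and their sum went from 12.4 to 12.8 CPM in control to 141 to 148 in TC and 56.3 to 57.3 in TCZ. Kdr alone gave 144 and 138 CPM of the TC sum, where Cdh5 and Tek were below control, and Pecam1 was at 10.9 and 10.7 CPM in TCZ against 0.02 and 0.13 in control. The sum of 6 epithelial markers, of which 2 reached that mean, was 16.6 to 19.4 CPM in control, 75.1 to 81.9 in TC and 13.4 to 17.6 in TCZ, mostly from Krt19. Leukocyte markers, 4 of 8 reaching that mean, summed to 12.8 to 12.9, 11.5 to 13.4 and 23.3 to 25.3 CPM. Neural markers, 3 of 5 reaching it, summed to 204 to 212, 224 to 231 and 114 to 117 CPM, with Nes at 209 and 214 in TC and Tubb3 going the other way there, from 37.2 and 31.9 in control to 5.89 and 8.07. Muscle markers, 2 of 4 reaching it, summed to 201 to 218, 173 to 175 and 181 to 194 CPM. The part of these markers in the results below was not tested. Lower RNA per cell and fewer expressing cells cannot be told apart in bulk RNA.

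Promoter windows of the 3 genes that were lower in both treatments are shown because the search for transcription factor motifs bears on them. Each runs from 250 bases before to 50 bases after the annotated start (RefSeq, GRCm38.p6, the same build as the files' mm10), 5′ to 3′ on the gene's strand. Capitals mark motif matches. The deposited spans of Tert and Tinf2 begin further upstream, so the windows of these genes lie wholly inside the spans given for the counts. The Tert window lies at chr13:73626661-73626960 on the plus strand, the Pot1a window at chr6:25809169-25809468 on the minus strand, and the Tinf2 window at chr14:55681768-55682067 on the minus strand.
Tert: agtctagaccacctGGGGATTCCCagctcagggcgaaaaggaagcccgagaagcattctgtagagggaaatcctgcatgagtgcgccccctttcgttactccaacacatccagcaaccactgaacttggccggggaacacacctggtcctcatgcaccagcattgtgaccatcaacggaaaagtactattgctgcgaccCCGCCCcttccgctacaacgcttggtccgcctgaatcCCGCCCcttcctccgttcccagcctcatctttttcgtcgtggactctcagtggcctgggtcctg
Pot1a: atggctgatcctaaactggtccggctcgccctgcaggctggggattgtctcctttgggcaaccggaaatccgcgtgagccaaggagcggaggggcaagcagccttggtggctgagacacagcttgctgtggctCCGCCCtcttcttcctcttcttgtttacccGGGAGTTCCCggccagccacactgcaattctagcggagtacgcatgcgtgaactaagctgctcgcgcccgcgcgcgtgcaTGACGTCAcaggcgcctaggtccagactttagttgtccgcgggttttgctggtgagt
Tinf2: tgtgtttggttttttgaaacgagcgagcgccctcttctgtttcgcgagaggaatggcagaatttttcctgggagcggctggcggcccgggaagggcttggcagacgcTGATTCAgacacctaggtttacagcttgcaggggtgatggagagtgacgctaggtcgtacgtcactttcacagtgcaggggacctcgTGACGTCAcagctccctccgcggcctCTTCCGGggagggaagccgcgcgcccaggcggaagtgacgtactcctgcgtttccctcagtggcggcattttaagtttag

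The motifs searched on both strands were the E-box CACGTG, the GC-box GGGCGG, the ETS motif CCGGAAG, the cyclic AMP response element (CRE) TGACGTCA, the AP-1 motif TGANTCA, the CCAAT box, the E2F motifs TTTCGCGC and TTTGGCGC, the NF-kB motif and a tandem pair of the telomere repeat TTAGGG. Windows were found for 6 of the 7 genes. In the Tert window, an NF-kB match began 236 bases before the start and GC-boxes began 51 and 14 bases before it. Pot1a had a GC-box 117, an NF-kB match 87 and a CRE 7 bases before its start. Tinf2 had an AP-1 match 143, a CRE 56 and an ETS match 30 bases before its start. Among all 32851 windows of this length, 1.79% held the CRE, 8.46% the NF-kB motif, 7.81% AP-1, 8.86% ETS and 35.7% the GC-box. The E-box, in 7.15% of all windows, and the E2F motif, in 0.813%, were found in no window of the 6 genes. The telomere repeat pair was in 0.0122% of all windows. Terf2 held a GC-box and a CCAAT box, Terf2ip a GC-box and an ETS match, and Acd CCAAT boxes alone. The CCAAT box was in 37.4% of all windows, and no 2 matches overlapped. GC content was 57.3% in the Tert window, 60.7% in Pot1a and 58.7% in Tinf2, against a median of 52.7% over all windows. A match is a description of letters and does not show binding.

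On the deposited gene lengths, levels per length put Acd first and Tert last in each group. The place of Acd rests on a deposited length of 1899 bases. Its 1 annotated transcript in GENCODE M21 held 3807 distinct stretches of 50 bases. The RPKM of Acd and its place therefore depend on the annotation. In control, mean RPKM (reads scaled by gene length and by library total) was 9.11 ± 0.98 for Acd (SD, n = 2), 5.41 ± 0.49 for Terf2, 4.74 ± 0.05 for Terf1, 4.73 ± 0.19 for Tinf2, 4.44 ± 0.79 for Terf2ip, 3.91 ± 0.03 for Pot1a and 1.01 ± 0.09 for Tert. Acd lay above all others in both control libraries and Tert below all others. The RPKM ranges of Terf1, Tinf2 and Terf2ip overlapped, as did those of Terf2ip and Pot1a, so their order in control is not resolved. In TC the order was Acd, Terf2, Terf1, Terf2ip, Tinf2, Pot1a and Tert, with the ranges of Terf2 and Terf1 overlapping. In TCZ it was Acd, Terf1, Terf2ip, Terf2, Tinf2, Pot1a and Tert, and no neighbouring ranges overlapped. In mean RPKM over the group, Tert was above 40.65% of the 18563 tested genes in control, 17.3% in TC and 12.9% in TCZ. The same shares for Acd were 70.85%, 74.4% and 71.7%.

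Tert showed the lowest treated levels relative to control of the 7 genes. It lies at chr13:73626179-73652366 on the plus strand, and its longest annotated coding transcript has 16 exons. The control libraries held 351 and 231 Tert counts, the TC libraries 46 and 61, and the TCZ libraries 28 and 31. As TMM-scaled CPM, these were 7.23 and 7.66 in control, 0.95 and 1.23 with TC, and 0.58 and 1.28 with TCZ. Both control libraries lay far above all 4 treated ones, and the TC and TCZ libraries overlapped. The log2 fold change was -2.77 ± 0.27 (SE) in TC, or 6.82-fold lower, and -3.12 ± 0.30 in TCZ, or 8.68-fold lower. From the summed counts alone, control was 6.79 times TC (95% counting interval 5.52 to 8.43) and 9.12 times TCZ (6.97 to 12.1). These intervals cover counting error only. The TCZ libraries differed from each other beyond it, with intervals of 0.38 to 0.83 CPM for TCZ 1 and 0.87 to 1.82 CPM for TCZ 2. TCZ against TC was at -0.35 ± 0.33, which became 0.23 without TCZ 1 and -0.91 without TCZ 2. The value in TCZ against control was -2.54 without TCZ 1 and -3.675 without TCZ 2.

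**Figure D1:**
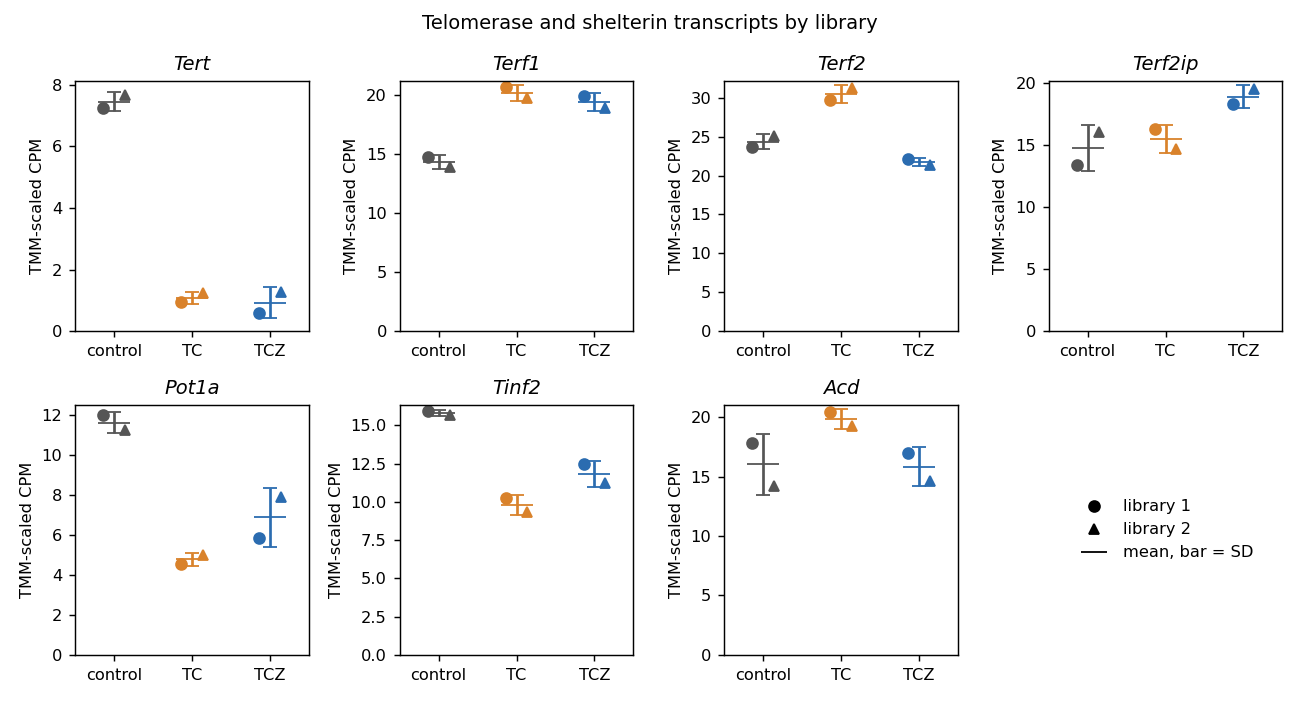
TMM-scaled CPM (vertical axis, from 0) of the 7 genes in each library of control, TC and TCZ; circles and triangles are libraries 1 and 2, and the horizontal mark and bar are the mean and SD. Tert is at 7.23 and 7.66 CPM in control and at or under 1.28 CPM in every treated library, and Pot1a and Tinf2 are lower in every treated library than in control.

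Pot1a, which encodes the POT1 protein that in mouse represses DNA damage signalling at telomeres, was the shelterin gene furthest below control. It spans chr6:25743735-25809277 on the minus strand. It measured 11.95 and 11.2 CPM in control, 4.55 and 4.99 with TC, and 5.83 and 7.90 with TCZ. The 3 groups did not overlap, with control highest and TC lowest. The log2 fold change was -1.28 ± 0.15 in TC and -0.78 ± 0.15 in TCZ, and TCZ was above TC by 0.50 ± 0.16. That last value was 0.29 without TCZ 2. Without both control 2 and TCZ 2, Pot1a was at -1.33 in TC and -1.04 in TCZ against control.

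Tinf2 encodes TIN2, the bridge between the duplex binders and TPP1. It spans chr14:55676208-55682624 on the minus strand. Its levels were 15.95 and 15.7 CPM in control, 10.3 and 9.33 with TC, and 12.4 and 11.2 with TCZ. Every treated library was below both control libraries, and both TCZ libraries were above both TC libraries. The log2 fold change was -0.69 ± 0.11 in TC and -0.41 ± 0.11 in TCZ. TCZ was above TC by 0.28 ± 0.11, and by 0.20 without TC 2 and 0.19 without TCZ 1. The difference from control in TCZ was -0.36 without both control 2 and TCZ 2. Tinf2 lies wholly inside Gmpr2, a gene on the other strand, and 26.5% of the 50-base words of its annotated transcripts also occur in transcripts of other genes, mostly Gmpr2. The strand setting of the counting is not given, so reads of the pair may be mixed or dropped. Gmpr2 itself was at 21.3, 21.1 and 19.3 CPM in control, TC and TCZ.

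Acd encodes TPP1, which recruits telomerase and tethers POT1. It spans chr8:105698157-105701290 on the minus strand. It measured 17.8 and 14.2 CPM in control, 20.4 and 19.2 with TC, and 17.0 and 14.7 with TCZ. TC was above the other groups, whose libraries overlapped. The log2 fold change was 0.30 ± 0.11 in TC and -0.02 ± 0.11 in TCZ, and TCZ was below TC by 0.31 ± 0.11. The TC value was 0.14 without control 2, 0.255 without TC 1, 0.18 with a batch term for control 2 and TCZ 2, and 0.16 with library totals alone. The TCZ-to-TC value was -0.28 without TC 1 and -0.22 without TCZ 2. The sign in TCZ against control is not settled, since it was positive with DESeq2, with RLE size factors, with a stricter count filter and without control 1 or TCZ 2. In the GENCODE M21 annotation 23.1% of the 50-base words of Acd are shared with Carmil2, the oppositely transcribed neighbour that matches Rltpr of the deposited table by position. In the deposited table Rltpr overlaps Acd by only 39 bases, and its level was 0.29, 0.22 and 1.14 CPM in control, TC and TCZ. Pard6a, also on the other strand, overlaps Acd there by 143 bases. It was at 3.64, 1.47 and 3.15 CPM in control, TC and TCZ.

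Among the duplex binders, Terf1 was higher in both treatments. TRF1 acts in telomere replication and length control. Terf1 spans chr1:15804982-15844052 on the plus strand. It measured 14.8 and 13.9 CPM in control, 20.7 and 19.7 with TC, and 19.9 and 18.9 with TCZ. All 4 treated libraries were above control, and TC and TCZ overlapped. The log2 fold change was 0.49 ± 0.09 in TC and 0.44 ± 0.10 in TCZ, with -0.05 ± 0.09 between TCZ and TC.

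Terf2 encodes TRF2, which hides the chromosome end from ATM signalling and end joining. It spans chr8:107069400-107096645 on the minus strand. Its levels were 23.7 and 25.0 CPM in control, 29.7 and 31.3 with TC, and 22.1 and 21.3 with TCZ. The groups did not overlap, and TC was highest and TCZ lowest. TC was above control by 0.33 ± 0.08 and TCZ below TC by 0.49 ± 0.09 on the log2 scale, while TCZ against control was -0.16 ± 0.09. With library totals alone the values against control were 0.18 in TC and -0.36 in TCZ. The pseudogene LOC108167553 overlaps Terf2 by 7853 bases on the same strand in the deposited table, so reads there are uncertain. It was at 2.83, 1.86 and 1.04 CPM in control, TC and TCZ, and was lower in TCZ than control by 1.45 ± 0.30 and than TC by 0.84 ± 0.30 on the log2 scale (edgeR adjusted p = 0.000278 and 0.0227). In GENCODE M21, none of the 4781 50-base words of Terf2 occurs in another gene's transcripts. Whether LOC108167553 is among those transcripts was not checked, so this does not bear on its overlap with Terf2.

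Terf2ip encodes RAP1, a TRF2 partner that also has reported roles in NF-kB signalling away from telomeres. It spans chr8:112011359-112020528 on the plus strand, and the pseudogene Gm6793 lies inside it on the other strand. It measured 13.4 and 16.02 CPM in control, 16.2 and 14.6 with TC, and 18.2 and 19.5 with TCZ. Control and TC overlapped, and both TCZ libraries were above them. The log2 fold change was 0.08 ± 0.11 in TC and 0.36 ± 0.11 in TCZ, and TCZ was above TC by 0.29 ± 0.11. The TC value turned negative without control 1 (-0.05) and with library totals alone (-0.07). The TCZ value was 0.23 without control 1, and that of TCZ against TC was 0.20 without TC 2 and 0.24 without TCZ 2.

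**Figure D2:**
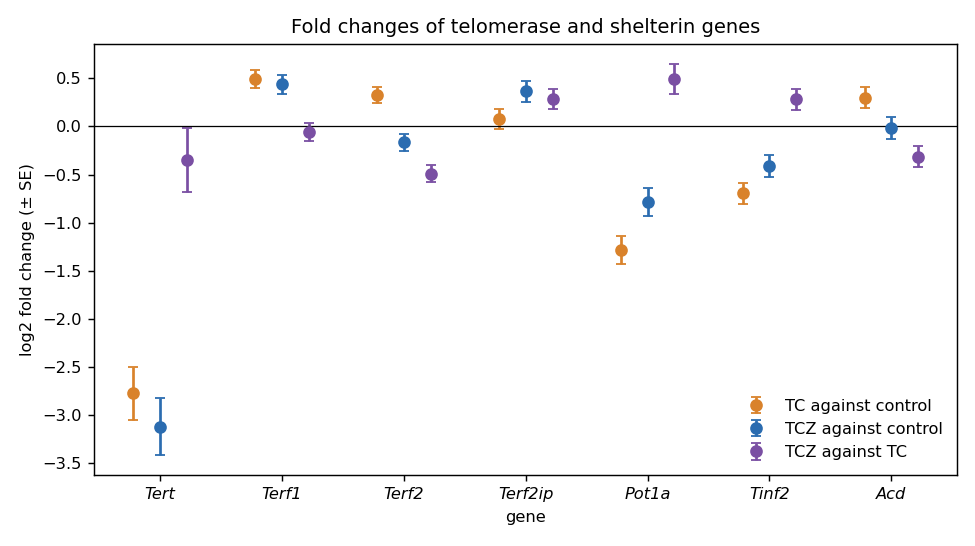
Log2 fold change with its standard error (vertical axis) for the 7 genes in the 2 treatments relative to control and in TCZ relative to TC, from the edgeR model of all 6 libraries. Tert is at -2.77 and -3.12 against control, Pot1a at -1.28 and -0.78, and the other genes lie between -0.69 and 0.49.

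By edgeR's quasi-likelihood test with Benjamini-Hochberg adjustment over all genes and a threshold of 0.05, Terf1, Terf2 and Acd were called higher in TC than control, and Tert, Pot1a and Tinf2 lower. Across all tested genes 31.5% were called higher and 29.1% lower in that comparison. In TCZ against control Terf1 and Terf2ip were called higher, and Tert, Pot1a and Tinf2 lower, where 31.5% of all genes were called higher and 28.6% lower. In TCZ against TC, Terf2ip, Pot1a and Tinf2 were called higher, and Terf2 and Acd lower, where 28.2% of all genes were called higher and 27.9% lower. Because these contrasts were in view when the genes were chosen, nothing is read from the counts. In TC against control the call of Acd was lost without control 2 or TC 1, and in TCZ against control that of Terf2ip without control 1. In TCZ against TC, Tert was called lower without TCZ 2. There the calls of Pot1a, Terf2ip and Acd were lost without TCZ 2, that of Acd also without TC 1, that of Terf2ip also without TC 2, and that of Tinf2 without control 1, control 2, TC 2 or TCZ 1. The first 2 comparisons share the control libraries. Library totals alone gave 1 higher and 3 lower in TC, 1 and 4 in TCZ, and 1 and 2 in TCZ against TC. Over all genes they gave 5080 higher and 6586 lower in TC, 4556 and 7017 in TCZ, and 4837 and 5746 in TCZ against TC. With TMM scaling these were 5856 and 5408, 5851 and 5313, and 5235 and 5179.

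The make-up of shelterin mRNA was described by each gene's share of the summed RPKM of the 6 subunits. The summed RPKM of the control libraries was 31.9 and 32.8, that of TC 31.3 and 30.1, and that of TCZ 27.4 and 28.0, with TCZ lowest. That order depends on the scale: as TMM-scaled CPM per kilobase, a check added after seeing the data, the sums were 30.6 and 29.1 for control, 31.9 and 30.8 for TC, and 29.9 and 28.9 for TCZ. On that scale TC was highest and TCZ overlapped control. Shares within a library are the same on both scales, which use the same deposited gene lengths. Pot1a made up 12.19% and 12.003% of it in control, 4.45% and 5.06% with TC, and 6.09% and 8.54% with TCZ. Tinf2 made up 14.4% and 14.9% in control, 8.88% and 8.38% with TC, and 11.5% and 10.8% with TCZ. The shares of both genes were lower in every treated library. Terf1 held 14.7 ± 0.10% in control, 19.7 ± 0.12% in TC and 20.2 ± 0.27% in TCZ (SD, n = 2). Terf1 RPKM divided by Terf2 RPKM gave 0.93 and 0.83 for control, 1.04 and 0.94 for TC, and 1.35 and 1.32 for TCZ, which put both TCZ libraries above the rest. Because each share is part of one sum, a lower share of one subunit raises the others.

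**Figure D3:**
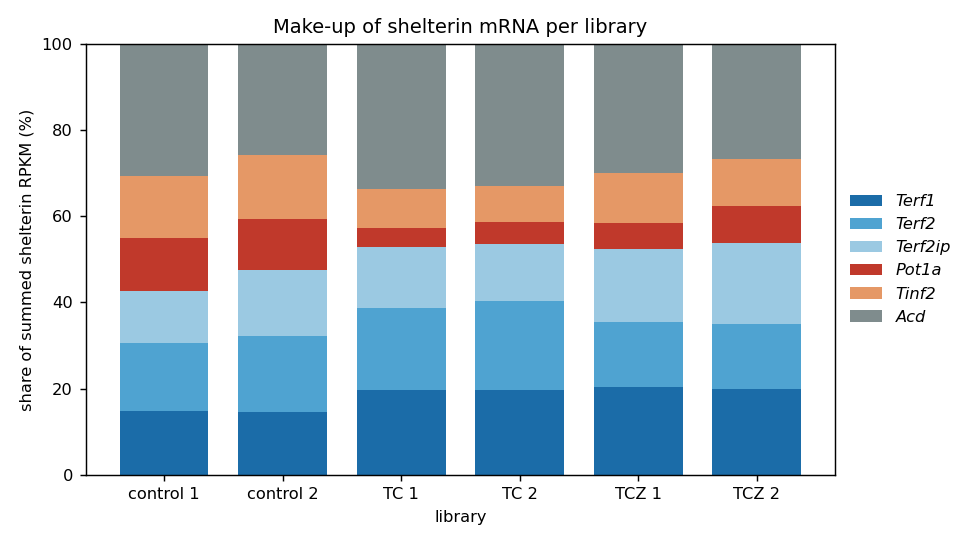
Share of each of the 6 shelterin genes in their summed RPKM (vertical axis, percent) for each library. Pot1a goes from 12.19% and 12.003% in control to 4.45% and 5.06% in TC. On the deposited gene lengths Acd is the largest share in every library, 25.7% to 33.7%.

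Pot1b, the other mouse POT1 gene and a factor that limits resection of the telomeric 5′ end, is not one of the 7, but its list was also chosen with results of these libraries known, so its p-values are no independent evidence. The same holds for every list gene below. It measured 5.77 and 5.87 CPM in control, 1.44 and 0.74 with TC, and 1.98 and 2.81 with TCZ. Both treated groups were below control without overlap, and both TC libraries were below both TCZ libraries. It fell by 2.41 ± 0.28 on the log2 scale in TC (edgeR adjusted p = 1.32e-07) and by 1.31 ± 0.27 in TCZ (adjusted p = 0.000227). TCZ was above TC by 1.10 ± 0.30 (adjusted p = 0.00332), but without TC 2 the value was 0.69 and the adjusted p 0.0531, and without both control 2 and TCZ 2 they were 0.86 and 0.0544, in a range of 3.33e-05 to 0.0544 over 16 alternatives. Annotated transcripts of Pot1a and Pot1b share 0 words of 50 bases, so exact reads of that length would not be confused. Pot1a RPKM was 4.56 and 4.202 times Pot1b RPKM in control, 6.95 and 14.7 times in TC, and 6.49 and 6.18 times in TCZ. These ratios rest on deposited lengths of 3204 bases for Pot1a and 7050 for Pot1b. Transcripts in GENCODE M21 held 8605 words of 50 bases for Pot1a and 5308 for Pot1b, so the size of the ratio depends on the annotation.

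Terc, the RNA partner of TERT, is shown with its template because the reads of both telomerase parts can be set side by side. The window covers bases 9 to 56 of the annotated transcript on chromosome 3, written as DNA, with the template in capitals (GENCODE M21).
Terc: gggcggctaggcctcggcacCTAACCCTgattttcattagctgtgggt

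The control libraries held 1 and 0 Terc counts, the TC libraries 37 each, and the TCZ libraries 36 and 17. All 4 treated libraries were above control, at 0.70 to 0.76 CPM. The ratio of summed counts was 59.2 in TC (95% counting interval 10.3 to 2371) and 57.3 in TCZ (9.86 to 2307). Terc was called higher in both by edgeR. It passed the low-count filter through its treated libraries alone, so these calls are a description and support nothing. With at least 50 counts in 2 libraries required, it was not tested. TCZ against TC did not pass (edgeR adjusted p = 0.939). Mature telomerase RNA carries no long poly(A) tail, so poly(A) selection captures it poorly, and these counts need not follow its total amount. Terc in TCZ 2, at 0.70 CPM, lay within the counting interval of TCZ 1, 0.52 to 1.03 CPM. Rnu1a1 had 1 count in TCZ 2 and 231 in TCZ 1. The source of the Terc reads was not tested.

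**Figure D4:**
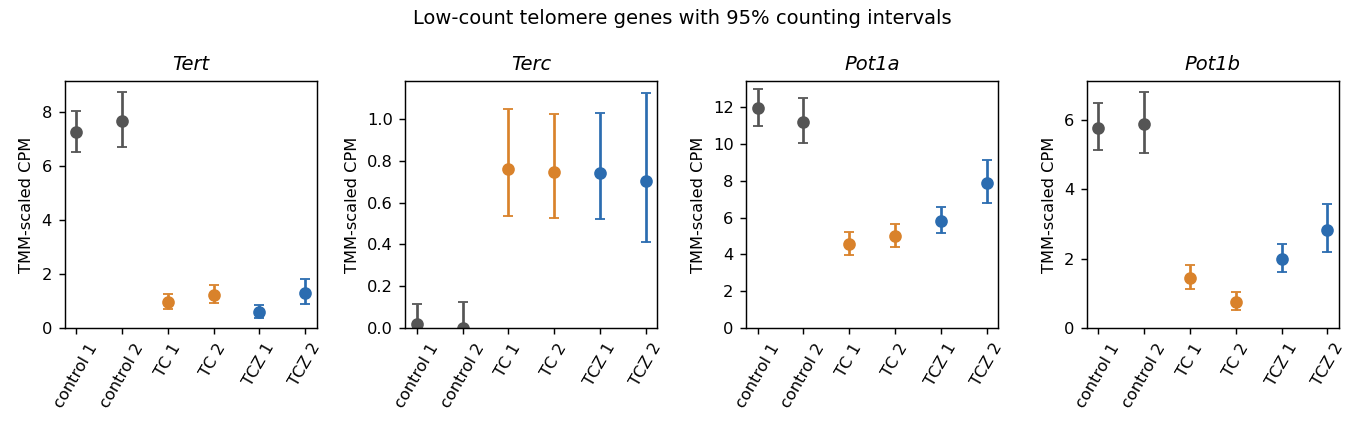
TMM-scaled CPM (vertical axis, from 0) with exact Poisson 95% intervals for Tert, Terc, Pot1a and Pot1b in each library. Tert and Terc move in opposite directions between control and the treated libraries, and the Tert intervals of TCZ 1 (0.38 to 0.83) and TCZ 2 (0.87 to 1.82) do not overlap.

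The other genes of telomere biology were read from 5 lists with 131 genes, of which 129 were tested. In TC 54 rose and 47 fell, or 41.9% and 36.4% against 31.5% and 29.1% of all genes, and the median log2 change was 0.02 over the 128 genes with a count, as over all genes (0.02). In TCZ 41 rose and 54 fell, or 31.8% and 41.9% against 31.5% and 28.6% of all genes (median -0.07, all genes 0.05). In TCZ against TC 32 were higher and 49 lower, or 24.8% and 38% against 28.2% and 27.9% of all genes (median -0.02, all genes 0.02). Library totals alone gave 44 and 58 in TC and 29 and 70 in TCZ. All genes also shifted to the lower side under that scaling, with 5080 higher and 6586 lower in TC and 4556 and 7017 in TCZ.

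Telomerase assembly and RNA processing genes rose in 14 and fell in 5 of 23 cases in TC (median 0.29), rose in 5 and fell in 7 in TCZ (median 0.02, but -0.18 with library totals alone and -0.06 without both control 2 and TCZ 2), and were higher in 2 and lower in 12 in TCZ against TC (median -0.23). The shares higher and lower were 60.9% and 21.7% in TC, against 31.5% and 29.1% of all genes. In TCZ they were 21.7% and 30.4% (all genes 31.5% and 28.6%). In TCZ against TC they were 8.7% and 52.2% (all genes 28.2% and 27.9%). Library totals alone gave 9 higher and 6 lower in TC (all genes 5080 and 6586) and 3 and 12 in TCZ (4556 and 7017). Beside Terc, Hsp90aa1, a chaperone used in telomerase assembly, rose from 801 ± 135 CPM (SD, n = 2) to 1692 ± 65.7 in TC and 2002 ± 266 in TCZ (edgeR adjusted p = 2.35e-09 and 9.14e-11). Coil, which encodes the Cajal body protein coilin, fell from 9.52 ± 1.46 to 6.78 ± 1.23 and 4.11 ± 0.72 CPM. Its TC call (adjusted p = 0.0106) was lost without control 1 (0.233) or TC 1 (0.13), in a range of 6e-04 to 0.233, while the TCZ call had an adjusted p of 3.53e-06. Zcchc8, a nuclear exosome targeting factor, was at 28.3 ± 0.06 CPM in control and 25.8 ± 0.73 in TC (edgeR adjusted p = 0.186, but 0.00638 with library totals alone), and fell to 16.4 ± 0.62 in TCZ (adjusted p = 1.02e-07).

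Of the CST complex, which fills in the telomeric strand, and other shelterin partners, 10 rose and 7 fell of 21 in TC (median 0.06, and -0.08 with library totals alone), 7 rose and 11 fell in TCZ (median -0.23), and 3 were higher and 8 lower in TCZ against TC (median -0.17). The shares that rose and fell were 47.6% and 33.3% in TC, against 31.5% and 29.1% of all genes. In TCZ they were 33.3% and 52.4% (all genes 31.5% and 28.6%). In TCZ against TC they were 14.3% and 38.1% (all genes 28.2% and 27.9%). Without both control 2 and TCZ 2, the median was 0.06 in TC and -0.21 in TCZ. Library totals alone gave 7 and 9 in TC (all genes 5080 and 6586) and 4 and 12 in TCZ (4556 and 7017). Slx4, a nuclease scaffold that binds TRF2, fell from 36.9 ± 0.98 to 25.1 ± 1.08 CPM in TC and 11.2 ± 0.81 in TCZ (edgeR adjusted p = 6.86e-06 and 4.23e-13). The meiotic telomere genes Terb1 and Terb2 were the members that rose most in TCZ. Terb1 went from 0.45 ± 0.02 to 2.20 ± 0.11 in TC and 1.56 ± 0.66 CPM in TCZ (adjusted p = 3.05e-05 and 0.00091). Terb2 had 0 counts in control and TC and 19 and 12 in TCZ, at least 11.2-fold above a floor of 3 counts over the control group. It passed the low-count filter through its TCZ counts alone, so its call is a description and supports nothing.

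Genes of telomere replication, processing and damage signalling rose in 10 and fell in 17 of 36 cases in TC (median -0.19), rose in 8 and fell in 13 in TCZ (median -0.08), and were higher in 12 and lower in 10 in TCZ against TC (median 0.10). The shares higher and lower were 27.8% and 47.2% in TC, against 31.5% and 29.1% of all genes. In TCZ they were 22.2% and 36.1% (all genes 31.5% and 28.6%). In TCZ against TC they were 33.3% and 27.8% (all genes 28.2% and 27.9%). Library totals alone gave 8 higher and 19 lower in TC (all genes 5080 and 6586) and 6 and 20 in TCZ (4556 and 7017). The nuclease genes Dna2 and Exo1 showed the largest falls. Dna2 went from 6.91 ± 0.81 CPM to 0.60 ± 0.004 in TC and 0.82 ± 0.04 in TCZ (edgeR adjusted p = 1.38e-10 and 1.54e-09), and Exo1 from 15.2 ± 1.15 to 1.91 ± 0.05 and 1.70 ± 0.77 (adjusted p = 8.38e-12 and 1.27e-11). Without TCZ 1, Exo1 was at -3.73 on the log2 scale in TCZ against control, in place of -3.07, and at -0.73 against TC (adjusted p = 0.038), which did not pass with all libraries. H2afx, the histone variant phosphorylated at breaks, rose from 50.8 ± 3.35 to 140 ± 1.95 and 231 ± 19.1 CPM. Rad52, a recombination mediator, rose from 6.84 ± 0.23 to 36.9 ± 0.37 and 25.3 ± 0.06 CPM. Adjusted p was 5.28e-13 and 5.53e-16 for H2afx and 1.5e-15 and 1.63e-13 for Rad52.

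Genes of telomeric chromatin and of the telomeric transcript TERRA rose in 7 and fell in 13 of 27 cases in TC (median -0.14), rose in 8 and fell in 16 in TCZ (median -0.20), and were higher in 8 and lower in 8 in TCZ against TC (median 0.01, but -0.04 with library totals alone and -0.02 without both control 2 and TCZ 2). The shares higher and lower were 25.9% and 48.1% in TC, against 31.5% and 29.1% of all genes. In TCZ they were 29.6% and 59.3% (all genes 31.5% and 28.6%). In TCZ against TC they were 29.6% and 29.6% (all genes 28.2% and 27.9%). Library totals alone gave 7 higher and 17 lower in TC (median -0.28) and 4 and 17 in TCZ (median -0.40). All genes then gave 5080 higher and 6586 lower in TC and 4556 and 7017 in TCZ. H3f3b, which encodes histone H3.3, rose from 249 ± 25.0 to 1006 ± 4.55 and 2247 ± 155 CPM (edgeR adjusted p = 2.31e-15 and 1.77e-18). H3f3a, the other H3.3 gene, was at 93.5 ± 3.87 and 85.0 ± 2.16 CPM in control and TC (adjusted p = 0.137, but 0.000386 with library totals alone and 0.0163 without both control 2 and TCZ 2) and rose to 130 ± 13.99 in TCZ (adjusted p = 2.19e-05). Daxx, an H3.3 chaperone subunit, was at 27.4 ± 0.90 and 28.4 ± 0.65 CPM in control and TC and fell to 7.38 ± 0.09 in TCZ (adjusted p = 2.02e-13). Suv420h2, a histone H4 methyltransferase of heterochromatin, fell from 7.97 ± 0.13 to 2.98 ± 0.51 and 1.16 ± 0.82 CPM (adjusted p = 4.94e-05 and 2.3e-08).

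Factors described in the literature at the Tert promoter rose in 13 and fell in 5 of 22 cases in TC (median 0.60), rose in 13 and fell in 7 in TCZ (median 0.37), and were higher in 7 and lower in 11 in TCZ against TC (median -0.15). The shares higher and lower were 59.1% and 22.7% in TC, against 31.5% and 29.1% of all genes. In TCZ they were 59.1% and 31.8% (all genes 31.5% and 28.6%). In TCZ against TC they were 31.8% and 50% (all genes 28.2% and 27.9%). Library totals alone gave 13 higher and 7 lower in TC (all genes 5080 and 6586) and 12 and 9 in TCZ (4556 and 7017). Myc, a known activator of Tert, rose from 82.0 ± 7.27 to 274 ± 1.51 and 535 ± 42.9 CPM (edgeR adjusted p = 3.24e-14 and 2.18e-17). Nfkb1, an NF-kB subunit gene, rose from 63.4 ± 0.58 to 737 ± 19.2 and 732 ± 59.5 CPM (adjusted p = 2.49e-19 and 1.54e-19). Ctcf, an insulator protein described as a repressor of human TERT, fell from 64.8 ± 1.97 to 40.1 ± 2.09 and 22.7 ± 1.31 CPM. Usf1, an E-box factor, fell from 19.8 ± 1.25 to 11.1 ± 2.72 and 5.49 ± 0.81 CPM. Adjusted p was 6.12e-08 and 3.74e-13 for Ctcf and 1.54e-05 and 5.52e-10 for Usf1. RNA levels of a factor do not measure its activity.

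**Figure D5:**
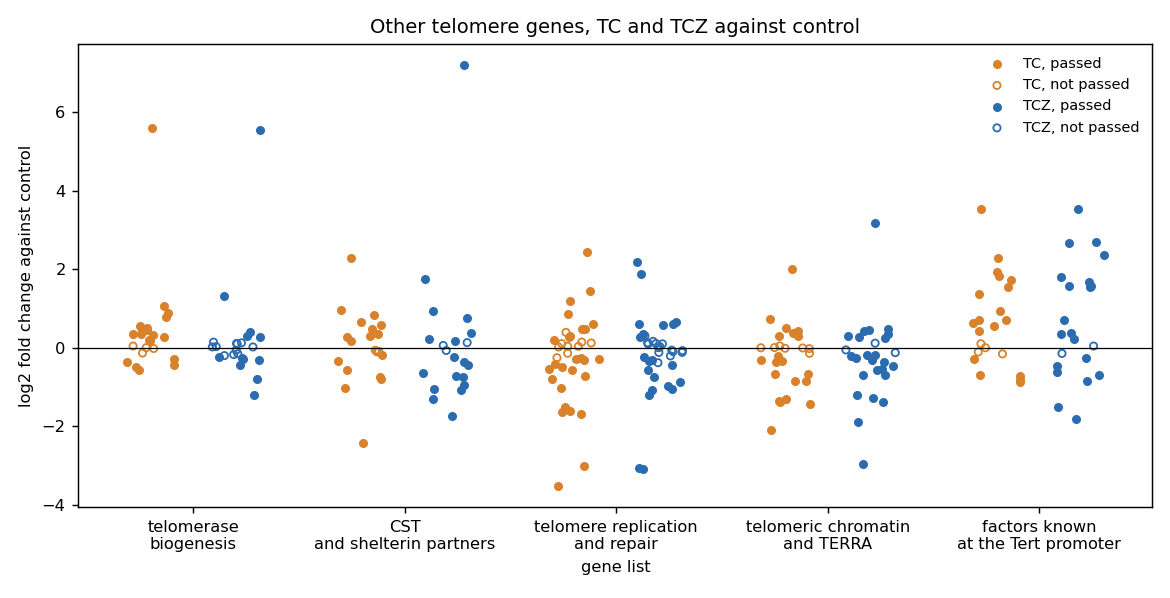
Log2 fold change against control (vertical axis) of the tested genes in 5 telomere gene lists, for TC and TCZ; filled points passed the adjusted p threshold of 0.05 and open points did not. Most genes lie within 2 on either side of 0; the isolated high points of the first list are Terc, and the highest TCZ point of the second list is Terb2, whose fitted value has no bound because control had 0 counts.

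The genes whose log2 CPM over the 6 libraries lay closest to that of Tert, each centred on its own mean, were Ick, Xbp1 and Maf1, at Euclidean distances of 0.58, 0.72 and 0.79 among 8578 genes averaging 10 CPM or more. Ick, the closest, measured 25.0 and 26.5 CPM in control, 4.01 and 4.08 with TC, and 2.80 and 3.60 with TCZ. For Pot1a, the other gene with the largest change in TCZ, the closest were Map3k4, Tmem94 and Raet1d, at 0.24, 0.25 and 0.26. Map3k4 measured 35.5 and 30.8 CPM in control, 13.7 and 14.5 with TC, and 18.9 and 20.7 with TCZ. The 6 libraries form 3 groups, so many genes can lie this close.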

How the data were processed

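Raw counts per gene and RPKM of 6 libraries stand side by side in the table that the authors deposited, per the file headers. Per the submitters' processing notes, the tools were bcl2fastq, HISAT2 2.1.0 and HTSeq and the genome build was mm10. The sources used here do not give the strand setting, annotation, read pairing or filters. The deposited RPKM values equalled counts divided by gene length and library total, with a largest difference of 5e-07, and served for levels between genes.

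Of 48897 genes, 18563 passed filterByExpr (minimum count 10). All 6 libraries entered one edgeR 4.0.16 model across all genes (R 4.3.3) with TMM scaling and group as the only factor, leaving 3 residual degrees of freedom. The quasi-likelihood test was used with Benjamini-Hochberg adjustment and a threshold of 0.05. The SE is the log2 fold change divided by the square root of its F. The procedure was tested on simulated data. Library totals alone moved the median of all genes by -0.14 (log2) in TC and -0.20 in TCZ relative to control, and by -0.06 between TCZ and TC, so changes are relative to the TMM scale. The labels do not say whether the pair of libraries in a group came from separate cultures. P-values therefore measure only how far these libraries differ, which may be technical.

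The 7 genes and all lists were chosen with earlier results of these data known. The rule for named list genes was the 2 largest rises and 2 largest falls per list among those passing in TCZ against control, plus Pot1b and Terc. For likeness the 3 closest genes were named for Tert and for the other gene with the largest change. The nearest gene on either side was taken for each of the 7. Counting intervals are exact Poisson or binomial (95%). Shared words were exact matches of 50 bases on either strand in GENCODE M21 transcripts. Alternatives were DESeq2 1.42.0, limma-voom (limma 3.58.1), RLE size factors, library totals, no low-count filter, at least 50 counts in 2 libraries, a fit of each pair of groups by itself, a block for the replicate number, control 2 and TCZ 2 as a batch, models with libraries left out, and a required log2 change of 1 or more.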

Additional observations from a re-analysis of the deposited data

How the results depend on the processing

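With 2 libraries per group, 1 library can decide a small change, and Tert at 28 to 61 counts in treated libraries is limited by counting. Over the alternatives run, Tert against control ranged from -2.96 to -2.59 in TC and from -3.675 to -2.54 in TCZ. Because the 7 genes were chosen on these libraries, such ranges describe them and support nothing. The number of the 7 called in TCZ against TC was 5, beside 10414 of all genes. It was 2 with DESeq2 (9361 of all genes), 3 with library totals alone (10583), 3 without the low-count filter (9602) and 3 with a batch term (10258). It was 3 to 4 when 1 library was left out. A required log2 change of 1 or more left 2 of the 7 in TC against control, 1 in TCZ against control and 0 in TCZ against TC, where edgeR called 5 with no such requirement. The list genes then numbered 28, 33 and 17 and all genes 5438, 5965 and 4327. Some values changed sign. Acd in TCZ against control was 0.0098 with DESeq2, 0.0099 with RLE size factors, 0.044 with at least 50 counts, and -0.18 to 0.16 when 1 library was left out. Nfkb1 in TCZ against TC was 0.0020 with DESeq2, 0.0017 with RLE size factors, 0.029 with at least 50 counts, 0.040 with a batch term, 0.0741 without both libraries and -0.10 to 0.0744 when 1 was left out. Terf2ip in TC against control was -0.066 with library totals alone and -0.050 to 0.20 when 1 library was left out, and Daxx there was -0.092 with library totals alone. With a batch term, Terc and Exo1 in TCZ against TC were 0.041 and 0.052. Exo1 was 0.23 without both libraries and -0.73 to 0.23 when 1 was left out, and passed at the low end (without TCZ 1, adjusted p = 0.038). Tert there was -0.91 to 0.23. For these values the cause was not tested.

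The replicate numbers did not pair the libraries: deviations of same-numbered libraries correlated at 0.0115 between control and TC, 0.124 between control and TCZ and -0.0215 between TC and TCZ. With the replicate number as a block, 6, 5 and 5 of the 7 genes, 100, 96 and 83 list genes, and 11240, 11166 and 10435 of all genes passed in the same 3 comparisons, and no result computed under it changed its call or direction.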

Other observations

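The nearest genes along the chromosome were read for each of the 7. Clptm1l, which lies 5539 bases to the left of Tert, was at 147.5 CPM in control, 87.9 in TC and 111 in TCZ, and fell by 0.75 and 0.41 on the log2 scale (edgeR adjusted p = 6.51e-09 and 3.68e-05). Slc6a18, to the right of Tert, had too few counts to be tested. Kars, which starts 4 bases from Terf2ip on the other strand and encodes lysyl-tRNA synthetase, fell by 0.45 in TC (adjusted p = 2.79e-05) and was at -0.17 in TCZ (adjusted p = 0.0626). Gpr37, to the left of Pot1a, had no count in any library. Nedd8, to the left of Tinf2, was at 54.0, 48.3 and 61.9 CPM in control, TC and TCZ.

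The summed RPKM of the 6 shelterin genes was 33.8 and 30.4 times that of Tert in control, 269 and 201 times in TC, and 414 and 180.03 times in TCZ, so the TCZ libraries lay on either side of both TC libraries.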
